A study of Mus musculus with 24 samples.

Results

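Reactive astrocyte genes are genes whose transcripts rise when astrocytes respond to injury or inflammation, and 10 of them were described here by symbol: Gfap, Vim, Serpina3n, Cd44, Aspg, Lcn2, Osmr, Steap4, S1pr3 and Timp1. All 10 were present among the 23240 genes of the hippocampal count table, and the rule that names them sets no threshold on a measured value, though they were chosen with earlier results of these data known. Of the 15225 genes that passed a filter on low values (a normalized read count of at least 10 in at least 4 libraries), 8 were among the 10. Steap4 and Timp1 did not pass and are given by level.

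Astrocytes are glial cells that take up glutamate, buffer potassium and contact blood vessels, and in a reactive state they enlarge and build more intermediate filament protein. Part of this programme runs through cytokine receptors that share the Il6st (gp130) subunit and signal through Stat3. Microglia, the resident macrophages of the brain, are a known source of the cytokine Il1a, of Tnf and of complement C1q, which together induce one reactive astrocyte state in culture. Microglia need signalling through the CSF1 receptor to survive, so an inhibitor of that receptor removes them from the brain.

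The libraries came from the hippocampus of male wild-type C57BL/6 mice aged 4 to 8 months. The PLX diet carried PLX5562, a CSF1 receptor kinase inhibitor by its label, and the control diet lacked it. After 3 weeks on their diet, stressed mice entered chronic unpredictable stress (CUS), a schedule of varied stressors lasting 5 weeks, and then received either 2.5 weeks of electroconvulsive therapy (ECT), in 3 sessions a week, or of sham sessions. The groups were nonstressed mice on the control diet (n = 4), stressed mice on the control diet with sham (n = 5) or ECT (n = 6), and stressed mice on the PLX diet with sham (n = 5) or ECT (n = 4). No nonstressed group on the PLX diet was analysed here, so every PLX diet difference below was measured in stressed mice. Libraries are called by the number that opens their title.

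Each library held 14.97 M to 20.12 M reads on genes, with 17290 to 17751 genes above 0. Microglial transcripts were low on the PLX diet: P2ry12, a microglial purine receptor, stood at 89.57 ± 21.19 (SD, n = 5) on the PLX diet and 645.1 ± 56.16 (n = 5) on the control diet in sham mice, and 10 of 10 microglial markers fell in each of sham and ECT mice. The 8 markers of dentate granule cells, neurons of the hippocampus, were above 0 in every library, but the share of neighbouring tissue varied. Ttr, the main product of the choroid plexus, ranged from 960.7 to 48153.1 within the control-diet sham group, and Tcf7l2, a thalamic transcription factor, from 109.0 to 1258.7 within the control-diet ECT group. Because bulk tissue was sequenced, fewer cells of a type and less RNA per cell cannot be told apart.

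The promoters of the genes on which the results turn are shown first, as 300 bases from 250 before to 50 after the start of the gene in RefSeq (build GRCm38.p6), in lower case with a match to a searched motif in capitals. Gfap and Aspg are shown because they were the 2 genes with a called PLX diet difference, and Osmr because its level followed Gfap most closely among the other tested members. The Gfap window lies at chr11:102897151-102897450 on the minus strand, the Aspg window at chr12:112106433-112106732 on the plus strand and the Osmr window at chr15:6874264-6874563 on the minus strand.
Gfap: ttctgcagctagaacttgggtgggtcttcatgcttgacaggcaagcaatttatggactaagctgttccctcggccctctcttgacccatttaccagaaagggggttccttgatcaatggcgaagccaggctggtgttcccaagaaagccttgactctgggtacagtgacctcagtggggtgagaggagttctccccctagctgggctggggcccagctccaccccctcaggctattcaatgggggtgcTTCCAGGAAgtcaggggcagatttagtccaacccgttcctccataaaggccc
Aspg: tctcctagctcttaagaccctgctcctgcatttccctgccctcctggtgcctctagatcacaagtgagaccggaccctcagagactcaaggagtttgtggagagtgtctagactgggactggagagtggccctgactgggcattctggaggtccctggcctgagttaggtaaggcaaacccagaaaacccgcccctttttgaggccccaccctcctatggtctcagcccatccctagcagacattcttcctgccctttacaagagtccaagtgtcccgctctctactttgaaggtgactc
Osmr: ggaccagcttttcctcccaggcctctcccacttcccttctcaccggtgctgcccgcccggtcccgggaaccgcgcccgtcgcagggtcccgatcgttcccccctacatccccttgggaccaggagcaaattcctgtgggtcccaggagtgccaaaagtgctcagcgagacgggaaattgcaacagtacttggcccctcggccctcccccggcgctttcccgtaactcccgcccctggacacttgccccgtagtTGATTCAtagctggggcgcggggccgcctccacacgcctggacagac

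The motifs searched were TTCNNNGAA, the core bound by STAT factors, and TGANTCA, the core bound by AP-1 factors, each of which reads alike on both strands. The STAT core was found in 2 of the 10 promoters, in Gfap with its first base 2 bases before the start and in Steap4 with its first base 116 bases before it. Of all 32851 promoters in the table, 8.3% held it. The AP-1 core was found in 1 of the 10, the Osmr promoter, and in 7.81% of all promoters. The Aspg promoter held neither.

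Differences are log2 fold changes from limma on log2(value + 1), a scale that understates the change of low genes, with p-values adjusted by Benjamini-Hochberg over the 15225 tested genes and calls at an adjusted p below 0.05. Over both treatments, with the sham and ECT differences averaged, the PLX diet came with higher Gfap: 1 of the 8 tested genes was called, beside 3.05% of all genes (464) in either direction and 0.493% (75) higher. In ECT mice alone 1 of 8 was called, Aspg, beside 2.3% of all genes (350), 0.44% (67) of them higher. In sham mice 0 of 8 were called, beside 1.86% of all genes (283), 0.0854% (13) of them higher. An unadjusted limma p below 0.05 was reached by 2 of the 8 in sham mice, beside 1444 of the 15225 genes. The counts were 3 of 8 beside 1741 genes in ECT mice, and 3 of 8 beside 1905 for the average. The median difference of the 8 genes was 0.12 in sham mice, 0.27 in ECT mice and 0.31 for the average, and the median over all genes lay within 0.01 of 0 in each.

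The members differed widely in abundance. On a scale of normalized reads per kilobase of exon, Gfap was the highest, with group means from 1536 in control-diet sham mice to 2533.3 in PLX-diet ECT mice. Serpina3n followed at 448 to 572 per kilobase and Vim at 187 to 229, then S1pr3 at 26.7 to 32.3. Aspg lay at 7.75 to 12.5, Osmr at 5.1 to 7.18, Cd44 at 3.64 to 8.97 and Timp1 at 4.39 to 9.63 per kilobase. Lcn2 (1.05 to 5.41) and Steap4 (0.901 to 1.57) were the lowest.

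**Figure D1:**
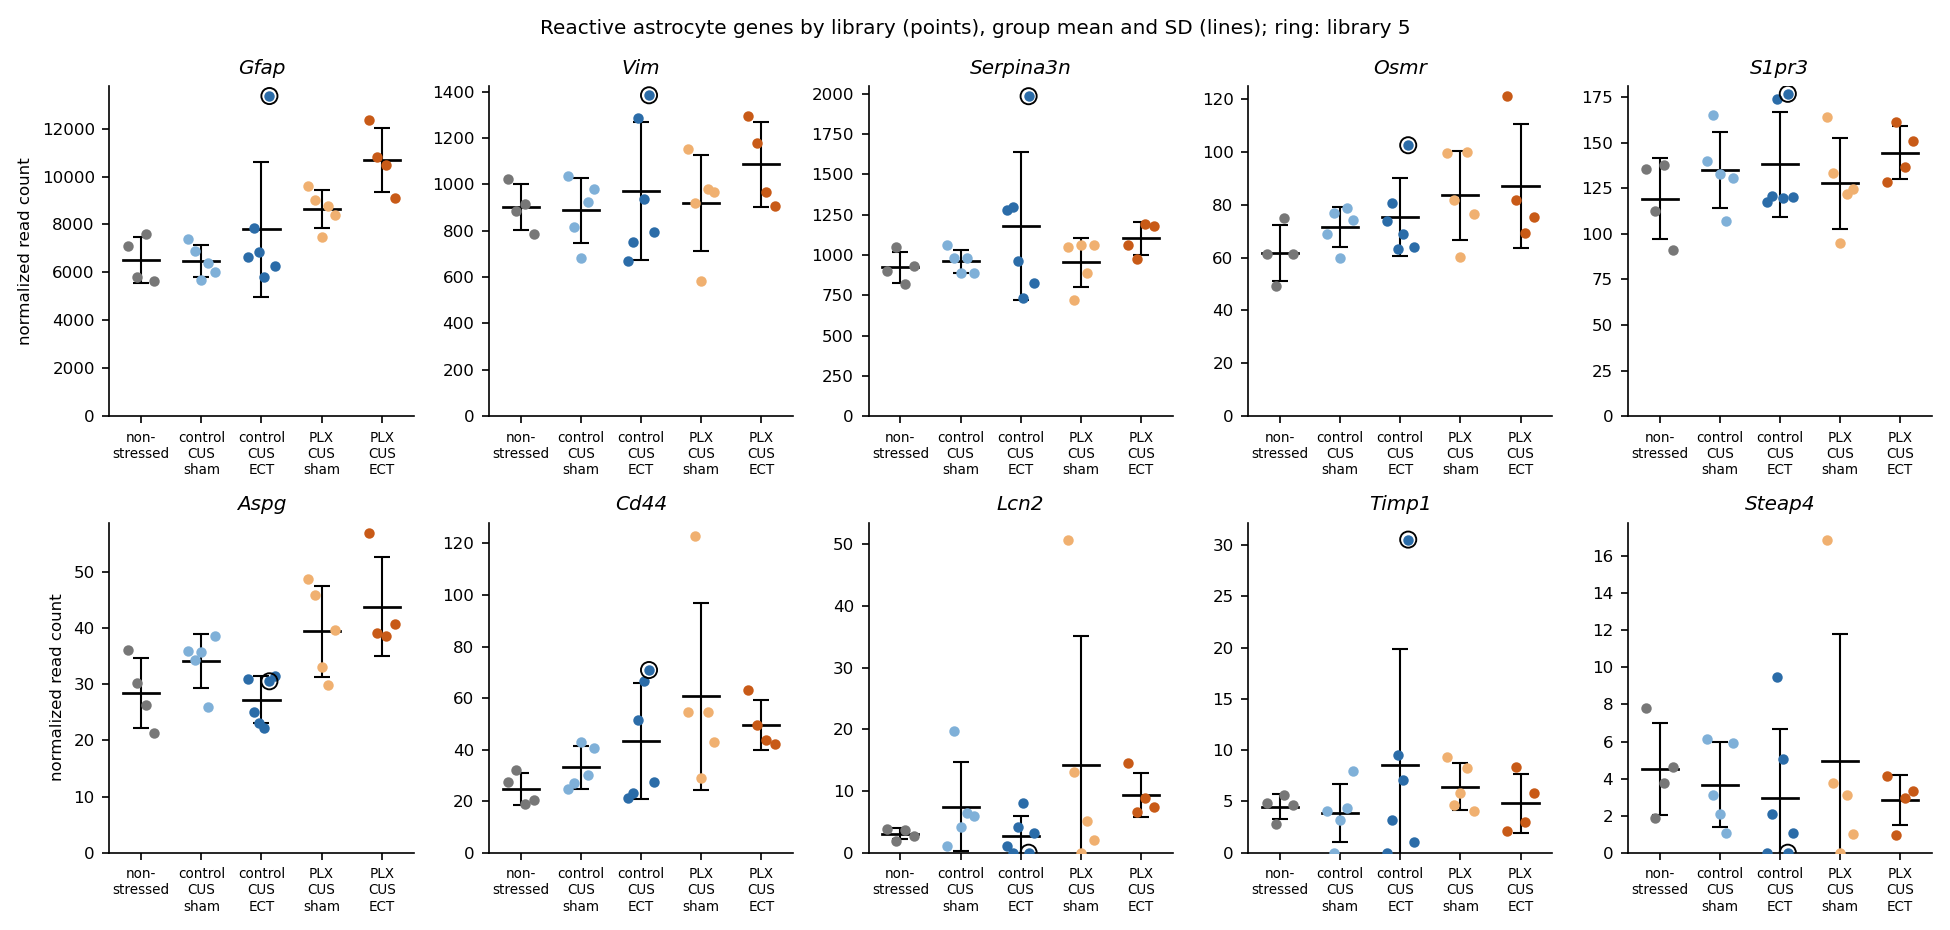
Normalized read count (vertical axes, starting at 0) of each of the 10 genes in every library (points) of the 5 groups (horizontal axes), with group mean and SD as lines; the ring marks library 5. For Gfap, 8 of the 9 PLX libraries lie above every control-diet library other than library 5, while Vim, Serpina3n and S1pr3 overlap between the diets.

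The intermediate filament genes come first. Gfap encodes the filament protein by which astrocytes are commonly identified, at chr11:102887336-102900912 on the minus strand (GRCm38, as for all genes here). In sham mice the 5 PLX libraries held 9598, 9035, 7469, 8789.8 and 8403 normalized reads, and the 5 control-diet libraries 7389, 6913, 5700.3, 6382 and 6009. Every PLX library was above every control-diet library in sham mice, a pattern that 0.841% of all tested genes (128) showed. The log2 difference was 0.42 (SE 0.159, 95% interval 0.09 to 0.75), with an adjusted p of 0.318 from limma.

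In ECT mice the 4 PLX libraries held 12356, 10817, 10480.1 and 9088 normalized Gfap reads, against a lowest of 5823, a median of 6746 and a highest of 13359 in the 6 control-diet libraries. The highest control-diet value, in library 5, stood above every PLX library, and the next highest was 7841. Without library 5 the control-diet ECT mean was 6687 ± 753.4 (SD, n = 5) rather than 7799 ± 2806 (n = 6), while the PLX mean was 10685 ± 1342 (n = 4). The log2 difference in ECT mice was 0.51 (SE 0.162, 95% interval 0.17 to 0.84, adjusted p = 0.131), and without library 5 it was 0.67 (adjusted p = 0.000192, limma). Library 5 was singled out for its own Gfap value, so the fit without it describes its weight and is no independent support.

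Averaged over both treatments, Gfap was 1.38-fold higher on the PLX diet (log2 0.46, SE 0.1135, 95% interval 0.23 to 0.70, adjusted p = 0.0206, limma). Among the 9 libraries with the most Gfap, 8 came from the PLX diet. How many of all tested genes split by diet to that degree was not counted. The difference between ECT and sham mice in this diet effect was 0.09 (95% interval -0.38 to 0.56, adjusted p = 0.959). The call ended without library 12 (log2 0.43, adjusted p = 0.0585), with libraries sharing a title letter treated as related (0.0752), with covariates for the choroid plexus and thalamus lists (log2 0.37, adjusted p = 0.208) and when the 8 libraries with the most thalamic RNA were left out (log2 0.33, adjusted p = 0.452).

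Ordered by mean level, Gfap ran from control-diet sham (6479 ± 680.5, SD, n = 5) and nonstressed mice (6534 ± 960.5, n = 4) through control-diet ECT (7799 ± 2806, n = 6) and PLX-diet sham (8659 ± 794, n = 5) to PLX-diet ECT (10685 ± 1342, n = 4). Neighbours in this order that the design compares were not called different by limma. Control-diet sham minus nonstressed was -0.01 on the log2 scale (SE 0.169, unadjusted p = 0.968, adjusted p = 0.997). Control-diet ECT minus nonstressed was 0.21 (SE 0.162, unadjusted p = 0.219, adjusted p = 0.821). ECT minus sham on the PLX diet was 0.30 (SE 0.169, unadjusted p = 0.0894, adjusted p = 0.999). The adjusted p depends on all tested genes, so it does not measure the spread of Gfap alone. Control-diet ECT and PLX-diet sham were not compared.

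Vim (chr2:13573927-13582826, plus strand) encodes vimentin, a filament protein that assembles with Gfap in astrocytes and is also made by vessel and meningeal cells. Its means were 887.3 ± 140.6 (SD, n = 5) and 919.6 ± 207.6 (n = 5) in sham mice on the control and PLX diets, and 970.5 ± 296.7 (n = 6) and 1085.5 ± 181.9 (n = 4) in ECT mice. The groups overlapped in both treatments, and the average log2 difference was 0.12 (95% interval -0.17 to 0.40, adjusted p = 0.803, limma). A further list held 6 genes of other intermediate filaments or their linkers, not all of them partners of Gfap or vimentin. Among them were Nes, the filament protein nestin, and Plec, a linker protein. Of the 6, 0 were called in sham mice, in ECT mice or on average, and their median average difference was -0.02.

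**Figure D2:**
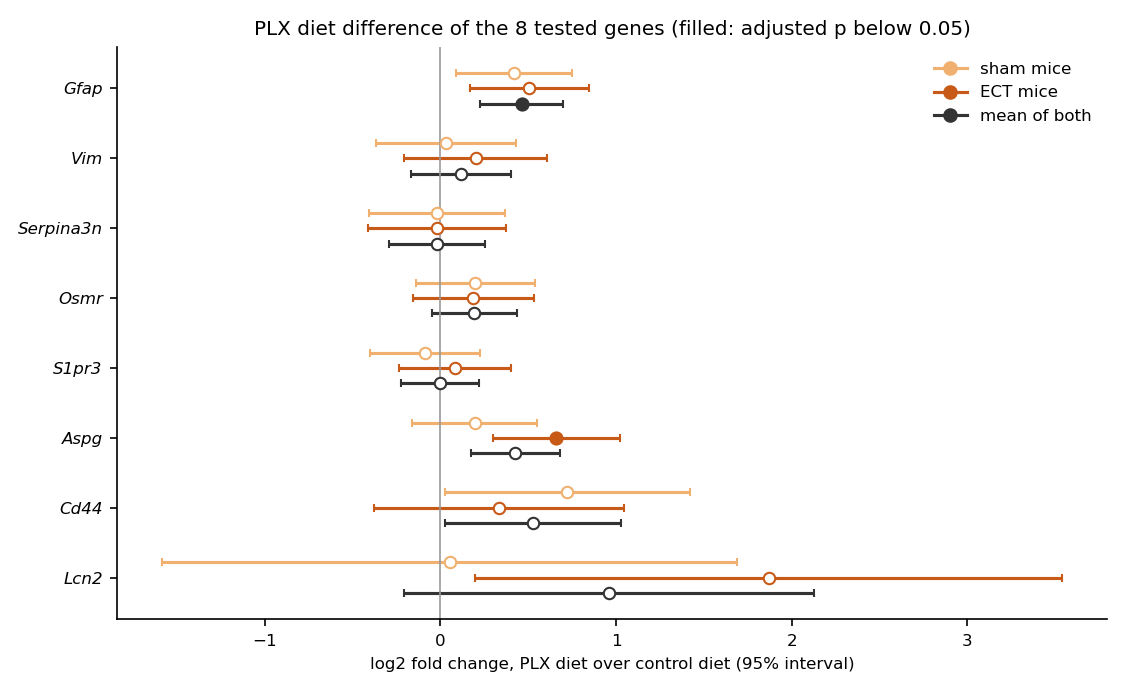
Log2 fold change of the PLX diet over the control diet (horizontal axis) for the 8 tested genes, in sham mice, ECT mice and averaged, with 95% intervals as bars; filled points have an adjusted p below 0.05. Gfap lies above 0 in all 3 estimates and is filled for the average, Aspg is filled in ECT mice, and Serpina3n is centred within 0.03 of 0.

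Among the secreted members, Serpina3n (chr12:104406729-104414329, plus strand) encodes a serine protease inhibitor that reactive astrocytes release. Its means in sham mice were 959.9 ± 73.03 (SD, n = 5) on the control diet and 955.7 ± 152.4 (n = 5) on the PLX diet. In ECT mice they were 1180.5 ± 457.3 (n = 6) and 1102.5 ± 104.0 (n = 4). The average difference was -0.02 with a 95% interval of -0.30 to 0.26 (adjusted p = 0.975, limma). That interval overlaps the one for Gfap, 0.23 to 0.70, and the 2 genes were not tested against each other. Library 5 held 1984.6, the highest of all 24 libraries, and without it the control-diet ECT mean was 1019.7 ± 259.6 (SD, n = 5). Serpina3n has near-identical family neighbours, so its count is uncertain.

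Lcn2 (chr2:32384633-32388252, minus strand) encodes lipocalin, a secreted carrier of iron-binding molecules that astrocytes and neutrophils make in inflammation. It was scarce, with a median of 4.21 normalized reads over the 24 libraries, 3 libraries at 0 and 4 libraries at 10 or more. In ECT mice the 4 PLX libraries held 14.52, 6.52, 8.91 and 7.47 normalized reads, and the 6 control-diet libraries ranged from 0 to 8.1 with a median of 2.11. In sham mice the PLX libraries spread from 0 to 50.65 (median 5.15, n = 5) and the control-diet libraries from 1.03 to 19.74 (median 5.94, n = 5), so the groups overlapped widely. The log2 difference was 1.87 in ECT mice (95% interval 0.20 to 3.54, adjusted p = 0.351) and 0.05 in sham mice (adjusted p = 0.994), and the difference between them was 1.82 (95% interval -0.52 to 4.16, adjusted p = 0.805, limma). Lcn2 passed the filter with exactly the 4 libraries it requires, 3 of which were on the PLX diet, so its estimates rest on few reads.

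Timp1 (chrX:20870166-20874735, plus strand) encodes a secreted inhibitor of matrix metalloproteinases. Its highest value was 30.53 in library 5, its median over 24 libraries was 4.67, and 2 libraries were at 0. With no filter, its average diet difference was 0.42 (95% interval -0.55 to 1.39, adjusted p = 0.827, limma). Timp1 lies within the span of Syn1, a gene of synaptic vesicles on the opposite strand. Whether exons of the 2 genes overlap was not checked, and the sources used here do not state whether counting used strand. Any part of Syn1 in the Timp1 count was not tested.

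Of the receptors, Osmr (chr15:6813577-6874969, minus strand) encodes the subunit that pairs with Il6st to bind oncostatin M. Its means in sham mice were 71.74 ± 7.57 (SD, n = 5) on the control diet and 83.53 ± 16.74 (n = 5) on the PLX diet, and in ECT mice 75.51 ± 14.72 (n = 6) and 87.02 ± 23.44 (n = 4). The groups overlapped in both treatments, and the average difference was 0.19 (95% interval -0.05 to 0.43, adjusted p = 0.540, limma). The highest value, 121.3, was in library 12 of the PLX-diet ECT group, and the next highest, 102.5, was in library 5 of the control-diet ECT group.

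Osm, which encodes the ligand oncostatin M itself, was at the limit of detection and lower on the PLX diet. It had 1 to 5 reads in each of the 15 control-diet libraries and 0 or 1 in the 9 PLX libraries, 7 of which were at 0. The reads summed to 30 over the control-diet libraries and 2 over the PLX libraries. Osm did not pass the filter. In the fit with no filter its adjusted p was 0.00806 in sham mice, 0.0657 in ECT mice and 0.000385 for the average, and a gene with so few reads gives no dependable fold.

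Cd44 (chr2:102811141-102901665, minus strand) encodes the surface receptor for hyaluronan, a sugar polymer of the extracellular matrix. In sham mice the PLX libraries held 54.41, 122.9, 29.14, 54.62 and 42.8 normalized reads and the control-diet libraries 24.65, 27.02, 43.14, 30.21 and 40.6. All but 2 PLX libraries stood above every control-diet library, a pattern not counted over all genes. The log2 difference was 0.72 (95% interval 0.02 to 1.42, adjusted p = 0.503, limma). In ECT mice the means were 49.62 ± 9.59 (SD, n = 4) on the PLX diet and 43.51 ± 22.49 (n = 6) on the control diet, with a log2 difference of 0.33 (adjusted p = 0.789). Cd44 had the widest range of the 7 members that were above 0 in every library, with 6.55-fold between its lowest and highest library.

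S1pr3 (chr13:51408639-51422797, plus strand) encodes a receptor for the lipid sphingosine 1-phosphate. Its group means lay between 119.3 ± 22.12 (SD, n = 4) in nonstressed mice and 144.3 ± 14.54 (n = 4) in PLX-diet ECT mice. The average diet difference was -0.002 with a 95% interval of -0.23 to 0.22 (adjusted p = 0.998, limma). It also had the narrowest range of those 7, with 1.94-fold between its lowest and highest library.

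Of the enzymes, Aspg (chr12:112106679-112127559, plus strand) encodes an asparaginase. In ECT mice the 4 PLX libraries held 57.03, 39.12, 38.61 and 40.66 normalized reads, and the 6 control-diet libraries ranged from 22.27 to 31.54 with a median of 27.84. The groups did not overlap in ECT mice, a pattern that 1.01% of all tested genes (154) showed, and Aspg was 1.58-fold higher on the PLX diet (log2 0.66, SE 0.175, 95% interval 0.30 to 1.02, adjusted p = 0.0437, limma). In sham mice the PLX libraries held 48.78, 45.96, 33.02, 29.89 and 39.74 normalized reads and the control-diet libraries 35.94, 34.29, 35.78, 25.89 and 38.62. Here the groups overlapped, and the log2 difference was 0.19 (95% interval -0.16 to 0.55, adjusted p = 0.789).

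The average difference of Aspg was 0.43 (95% interval 0.17 to 0.68, adjusted p = 0.0601), and the diet effect in ECT mice exceeded that in sham mice by 0.47 (95% interval -0.04 to 0.97, adjusted p = 0.764, limma), so the treatments were not shown to differ. The call in ECT mice ended when the 8 libraries with the most thalamic RNA were left out (log2 0.34, adjusted p = 0.927), with libraries of 1 title letter treated as related (0.118), with only the compared groups in the fit (0.119), with no filter on low values (0.0521), with covariates for choroid plexus and thalamus (0.0519) and with the meningeal covariate (0.0559). It also ended when any 1 of libraries 2, 3, 4, 7, 8, 9, 12, 13, 14, 15, 21, 23 or 24 was left out. In those fits the adjusted p lay between 0.0516 (without library 23) and 0.239 (without library 12), and the log2 difference between 0.53 and 0.71. Libraries 7, 8, 9, 21, 23 and 24 are in neither ECT group. Leaving those out changed the estimate of spread and the adjustment of p, not the difference. Over all 24 libraries, 6 of the 9 PLX libraries stood above all 15 control-diet libraries for Aspg. The share of all tested genes with such a pattern was not counted.

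Steap4 (chr5:7960457-7982213, plus strand) encodes a metalloreductase that reduces iron and copper. It had a median of 3.11 normalized reads over the 24 libraries, with 3 libraries at 0 and 1 library above 10, library 17 at 16.88. With no filter its diet difference was -0.18 in sham mice (adjusted p = 0.983) and 0.41 in ECT mice (adjusted p = 0.903, limma).

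**Figure D3:**
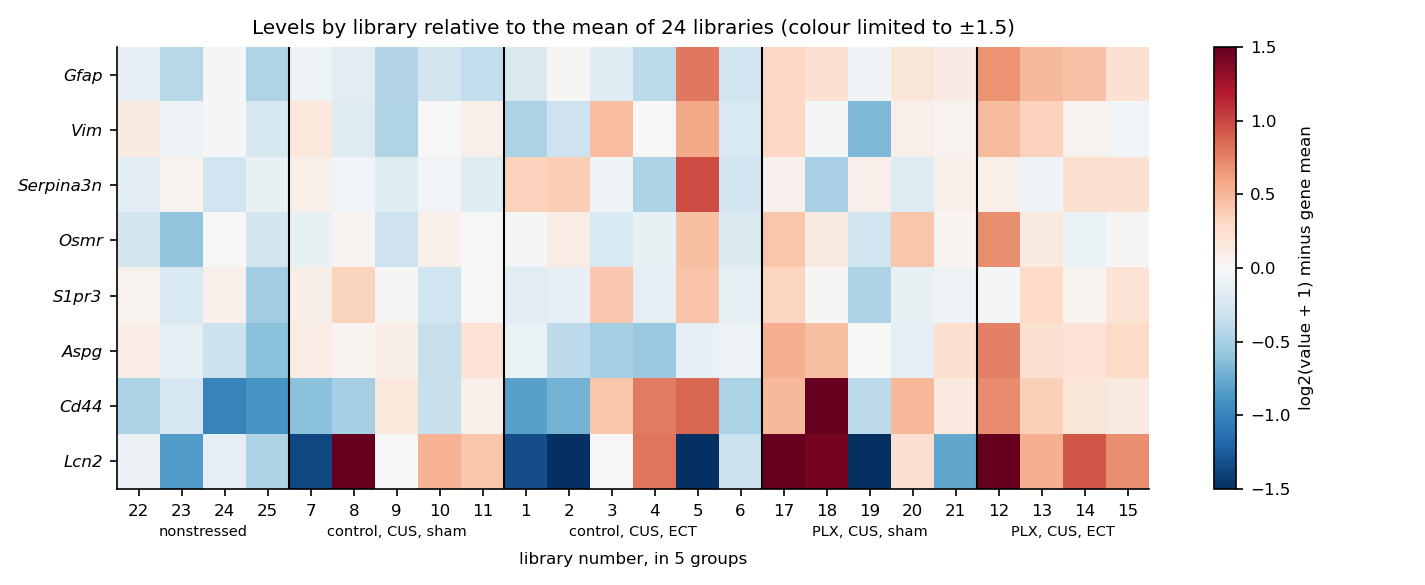
Level of the 8 tested genes in each of the 24 libraries, as log2(value + 1) minus the mean of the gene (colour, limited to ±1.5), with libraries in columns ordered by group. Library 5 is high in most rows of the control-diet ECT group, and libraries 12 to 15 of the PLX-diet ECT group are above the gene mean in 7 of 8 rows each.

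Single libraries stood out across several members. Library 5, of the control-diet ECT group, was the highest of the 24 in 4 of the 8 tested genes (Gfap, Vim, Serpina3n and S1pr3) and among the 3 highest in 6. Its microglial list stood 0.81 above the mean over libraries (log2), within the 0.66 to 0.95 of its group. That mean includes the PLX libraries, where the list was low. Its homeostatic astrocyte list stood 0.03 below, within the -0.08 to 0.14 of its group. Library 12, of the PLX-diet ECT group, was among the 3 highest in 5 of the 8 and the highest in Aspg and Osmr, and its choroid plexus and thalamus lists stood 1.94 and 0.62 above their means. Library 17, of the PLX-diet sham group, was above the gene mean in 8 of 8 and held the most ribosomal Rn45s reads, at 2.90%. Libraries 6 and 25, of the control-diet ECT and nonstressed groups, were above the gene mean in 0 of 8.

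The members followed each other to different degrees over the 24 libraries, which share group and depth differences, so the correlations are a description. Spearman's rho with Gfap was 0.746 for Osmr, 0.55 for Aspg, 0.538 for S1pr3 and 0.532 for Vim. It was 0.459 for Cd44, 0.438 for Serpina3n and 0.232 for Lcn2. Serpina3n and Vim barely followed each other, at 0.067. Outside the 10 genes, those most like Gfap among all tested genes were Gpnmb (0.783), Hspa9 (0.781) and C4b (0.777), and C4b, a complement component, was also the third most like Osmr (0.68). For Vim the closest was Stat3 (0.843), for Serpina3n Sez6l (0.858), for Aspg Gimap4 (0.74), for Cd44 Npas3 (0.757), for Lcn2 Tbx18 (0.777), for Osmr Zfp820 (0.723) and for S1pr3 Ltbp1 (0.769).

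In the other lists of reactive astrocyte genes 0 were called higher in sham mice, in ECT mice or on average. Of 3 further genes shared by reactive astrocyte states, 0 were called in sham mice, in ECT mice or on average (0 also with edgeR and DESeq2). Cp, the copper carrier ceruloplasmin, had an average difference of 0.19, Cxcl10, a chemokine, of -0.04, and Hspb1, a small heat shock protein, of -0.21. With the meningeal fibroblast list as a covariate Hspb1 was called lower (average -0.70, adjusted p = 0.00547).

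Of the A1 panel, genes of the reactive state that inflammation induces, 0 of the 11 tested were called in sham mice, in ECT mice or on average (12 are listed), with a median average difference of -0.06. H2-D1, a class I histocompatibility gene, was at -0.55 in sham mice (adjusted p = 0.0848, limma), and DESeq2 called it lower (0.0306), as did limma without library 9 (0.0337) and without the 8 libraries with the most thalamic RNA (0.011). Without library 17, H2-D1 and Psmb8, a proteasome subunit, were called lower in sham mice (adjusted p = 0.00585 and 0.0122, limma), and with the meningeal covariate 4 of the 11 were called lower. Of the A2 panel, genes of the state described after ischaemia, 1 of the 10 tested was called lower in both treatments (12 are listed) and 0 were called higher. It was Cd14, a lipopolysaccharide co-receptor that microglia express, at -2.55 in sham mice (adjusted p = 8.6e-08) and -2.08 in ECT mice (2.69e-06, limma). With the meningeal covariate Tm4sf1, a surface protein, was also called lower in sham mice (adjusted p = 0.0203, limma). The medians of that panel were -0.30 in sham mice and 0.01 in ECT mice.

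In the list of gp130 and STAT3 pathway genes, 1 of the 11 tested fell in both treatments (14 are listed) and 0 rose. Il6ra, the interleukin 6 receptor chain, which microglia express, was at 54.16 ± 8.56 (SD, n = 5) on the PLX diet and 86.75 ± 10.39 (n = 5) on the control diet in sham mice (log2 -0.67, adjusted p = 0.0041, limma). In ECT mice it was at 46.47 ± 6.06 (n = 4) and 82.38 ± 5.27 (n = 6), a log2 difference of -0.82 (adjusted p = 0.000533). Stat3 had an average difference of 0.09 (adjusted p = 0.546) and Il6st of 0.01 (0.981). Socs3, a gene that Stat3 is known to induce and whose product inhibits the pathway, had one of -0.12 (0.866).

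Of the microglial inducers, 4 of the 4 tested fell in both treatments. C1qa, a complement chain, fell by 2.33 in sham mice and by 2.37 in ECT mice on the log2 scale. Il1a fell by 1.52 (adjusted p = 0.0279) and by 1.58 (adjusted p = 0.0227, limma). The Il1a call ended in 12 of 37 alternatives in sham mice and 8 of 37 in ECT mice, with 3 of the 4 genes then called, while all 4 were called on average in all 37. In sham mice it ended without any 1 of libraries 7, 8, 11, 18, 19 or 21 (adjusted p of 0.0705 to 0.127), and in ECT mice without any 1 of libraries 4, 13, 14 or 15 (0.0605 to 0.151). With libraries of 1 title letter treated as related its adjusted p was 0.11 in sham mice and 0.0993 in ECT mice. Tnf, the fifth of the list, did not pass the filter, and with no filter its adjusted p was 0.849 in sham mice and 0.759 in ECT mice.

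Of the genes of the homeostatic astrocyte, 0 of 14 were called in sham mice, in ECT mice or on average (0 also with edgeR and DESeq2), with medians of 0.02, -0.04 and -0.01. The average difference of Slc1a2, the main glutamate transporter, was -0.02 and that of Gja1, the gap junction protein connexin, -0.03. Aqp4, the water channel of astrocyte endfeet, had the largest difference of the 14 in ECT mice, 0.30 (adjusted p = 0.211), and 0.01 in sham mice (0.993). The summed level of the 14 ranged from 110497.1 to 133367 in PLX-diet sham libraries and from 116880.1 to 126006.6 in control-diet sham libraries. Aqp4 was called higher in ECT mice without library 3 (log2 0.38, adjusted p = 0.0364) and with covariates for the choroid plexus and thalamus lists (log2 0.35, adjusted p = 0.00893, limma). With the meningeal covariate, Atp1b2, a sodium pump subunit, and Kcnj10, a potassium channel, were called lower on average (log2 -0.12, adjusted p = 0.0266, and log2 -0.26, adjusted p = 0.0352).

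**Figure D4:**
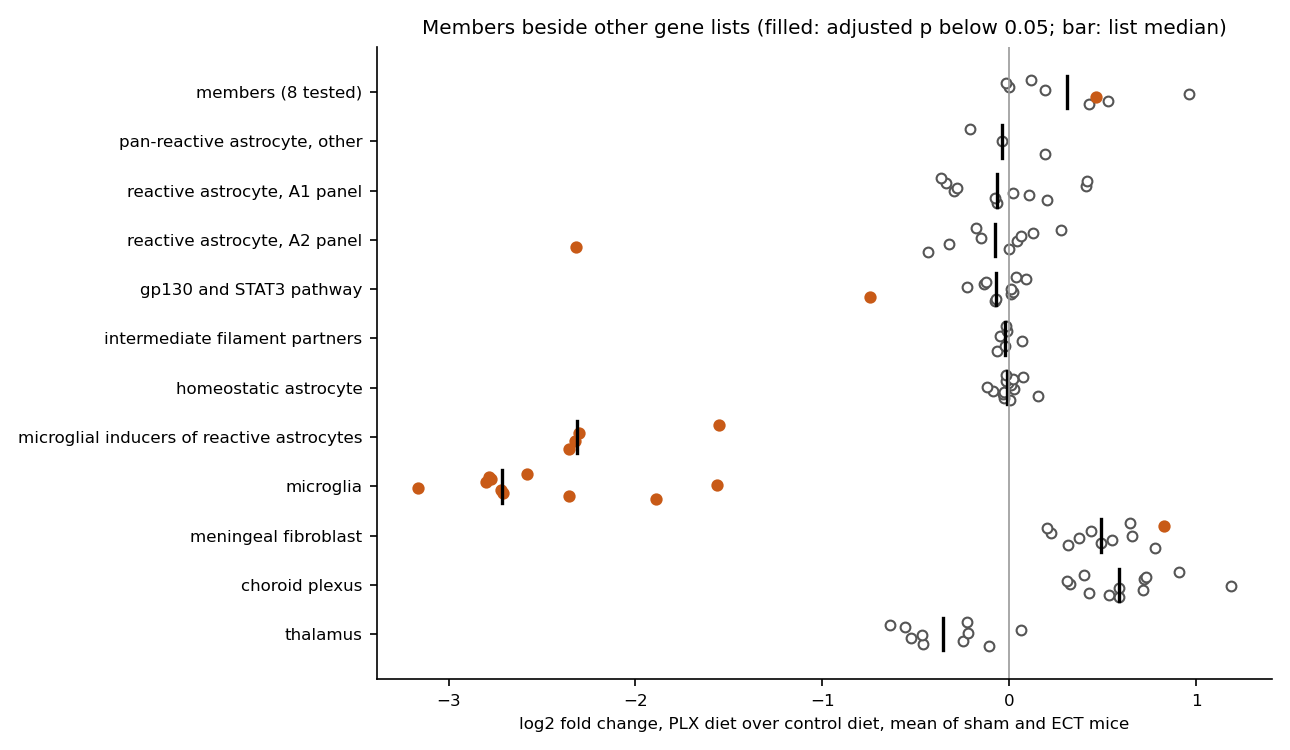
Average log2 fold change of the PLX diet over the control diet (horizontal axis) for each tested gene (points) of the 10 members and of other gene lists (rows), with the list median as a bar; filled points have an adjusted p below 0.05. The microglial lists lie below -1.5 and are filled throughout, the homeostatic astrocyte genes lie around 0, and 1 member, Gfap, is filled.

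Markers of neighbouring tissue were compared in the same way. Of the 12 choroid plexus markers, 12 had a positive difference in sham mice (median 1.52) and 3 in ECT mice (median -0.15), with 0 called in either. Their summed level ranged from 5382.5 to 91473.9 in PLX-diet sham, 5254.1 to 74673.8 in control-diet sham, 7365.3 to 75492 in PLX-diet ECT, 4983.4 to 52896.4 in control-diet ECT and 23183.6 to 116619.7 in nonstressed libraries, and none of the 12 was at 0 in any library. Of the 11 meningeal fibroblast markers, 11 were positive in sham mice (median 0.61) and 10 in ECT mice (median 0.40), again with 0 called. Their summed level ranged from 1773.4 to 5453.7 in PLX-diet sham, 1593 to 3812.7 in control-diet sham, 1910.9 to 3895.4 in PLX-diet ECT, 1329.1 to 3505.3 in control-diet ECT and 2161 to 4329 in nonstressed libraries. For the average, Ogn, a matrix protein, was called (0.83, adjusted p = 0.0197, limma).

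Of the 10 thalamic markers, 9 were lower on the PLX diet in sham mice and 10 in ECT mice (medians -0.29 and -0.37), with 0 called. Their summed level ranged from 4821.3 to 9002.2 in PLX-diet sham, 4919.1 to 13672.3 in control-diet sham, 4901 to 8427.4 in PLX-diet ECT, 4241.4 to 15287.3 in control-diet ECT and 5351.7 to 11946.4 in nonstressed libraries. With the meningeal list as a covariate Gfap remained called on average (log2 0.45, adjusted p = 0.0462). With covariates for choroid plexus and thalamus and library 5 also left out, its average difference was 0.50 (adjusted p = 0.000385), and without library 5 and the thalamus-rich libraries it was 0.50 (0.00163). Library 5 was singled out for its own Gfap value, so these fits describe its weight and are no independent support.

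Of the 8 markers of neutrophils and other leukocytes, 0 passed the filter, and their summed level was at most 42.84 in PLX-diet ECT, 26.26 in PLX-diet sham, 39 in control-diet ECT, 51.56 in control-diet sham and 38.47 in nonstressed libraries. Their part in the Lcn2 values was not tested. In the lists of ependymal, endothelial, mural, oligodendrocyte and neural stem cell markers, 0 genes were called in either treatment. Of the 5 tested border macrophage markers, 3 fell in sham mice and 5 in ECT mice. The ECT count was 3 with DESeq2, with libraries of 1 title letter treated as related and without the 8 libraries with the most thalamic RNA. It was also 3 without any 1 of libraries 4, 13 or 15. Over all 37 alternatives it ranged from 2 to 7, and 7 arose with no filter, where all 7 listed markers were tested. Of the 8 dentate granule cell markers, 8 had a positive difference in ECT mice (median 0.38) and 6 in sham mice (median 0.125). Tdo2 and Plk5 were called higher in ECT mice, by 0.77 (adjusted p = 0.00194) and 0.83 (0.0187, limma). With only the compared groups in the fit neither was called (0.089 and 0.222). The Plk5 call also ended with libraries of 1 title letter treated as related (0.054), without library 4 (0.0534), without library 12 (0.106), with tissue covariates and no library 5 (0.0877) and without the 8 libraries with the most thalamic RNA (0.287). Its difference was 0.39 when library 5 was left out with those 8 (adjusted p = 0.633, limma).

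**Figure D5:**
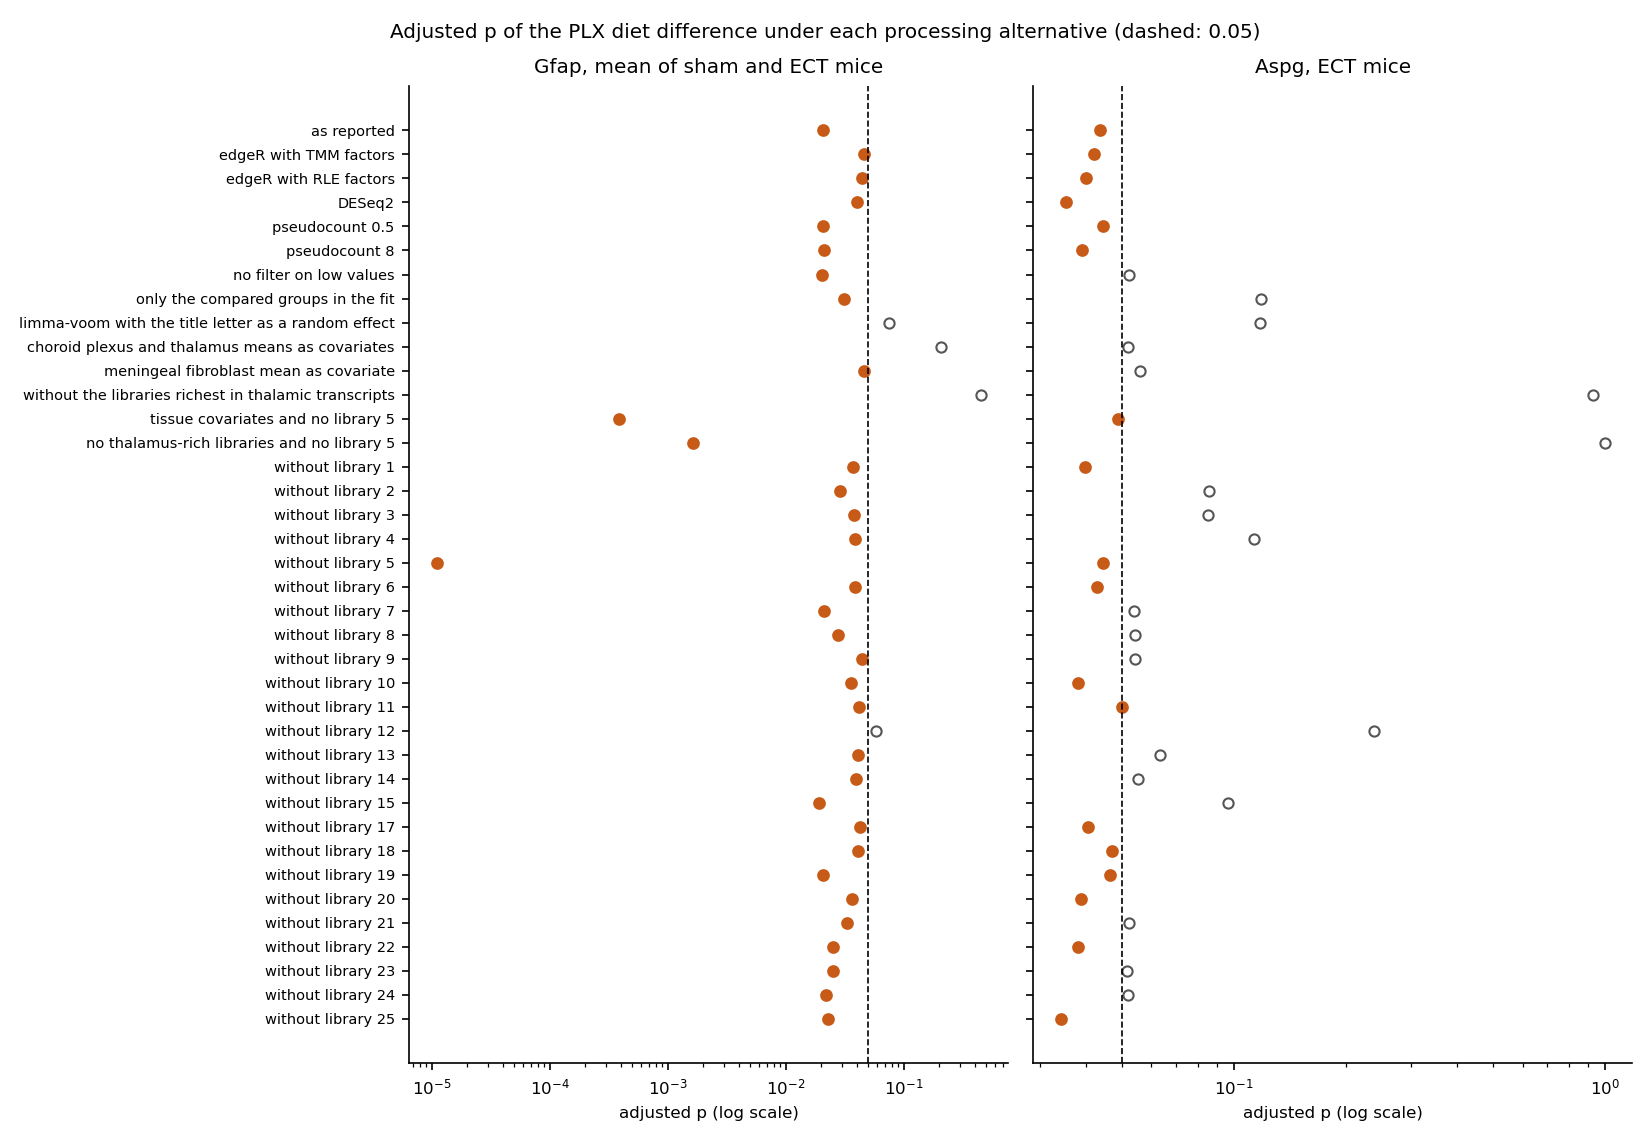
Adjusted p (horizontal log axes, dashed line at 0.05) of the PLX diet difference of Gfap averaged over treatments (left) and of Aspg in ECT mice (right), as reported and under each of 37 processing alternatives (rows); filled points are below 0.05. Gfap is open in 4 alternatives, and Aspg in 20.

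No member was called for ECT or for stress. For ECT on the control diet 0 of 8 were called, beside 0.00657% of all genes (1), and for ECT on the PLX diet 0 of 8, beside 0.0% of all genes. For the interaction of ECT with diet 0 of 8 were called, beside 0.0%, for stress in sham mice 0 of 8, beside 0.0%, and for stress with ECT 0 of 8, beside 0.0%. In each of these 5 comparisons 0 of the 8 had an unadjusted p below 0.05, and edgeR and DESeq2 also called 0 of 8. Over all genes, 1048 had an unadjusted p below 0.05 for ECT on the control diet and 388 for ECT on the PLX diet. The counts were 1043 for the interaction, 989 for stress and 1118 for stress with ECT. For ECT on the PLX diet, the interaction, stress and stress with ECT, DESeq2 called 0, 0, 1 and 20 genes. For ECT on the control diet the genes called ranged from 0 to 10 over the 37 alternatives.

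Among the members, the largest of these differences by size was that of Lcn2 for the interaction, given above. For ECT on the control diet Aspg had a log2 difference of -0.31 (95% interval -0.65 to 0.03, adjusted p = 0.731) and Gfap of 0.21 (95% interval -0.10 to 0.53, adjusted p = 0.858, limma). For ECT on the PLX diet Gfap had 0.30 (95% interval -0.05 to 0.65, adjusted p = 0.999). For stress, Cd44 was at 24.66 ± 6.2 (SD, n = 4) in nonstressed and 33.12 ± 8.28 (n = 5) in stressed control-diet sham libraries, a log2 difference of 0.41 (95% interval -0.33 to 1.15, adjusted p = 0.865). Gfap had a stress difference of -0.01 (95% interval -0.36 to 0.34). A p that misses the threshold does not show that the groups were alike, and both ECT intervals of Gfap reach above its average PLX diet difference of 0.46.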

How the data were processed

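The deposited table gives each gene 1 signal per library, a read count over that library's size factor ("Norm Counts" per the file headers). The submitters' processing notes name cutadapt, HTSeq 0.6.1p1, TopHat2 2.0.10 and DESeq2 1.6.3, and builds mm10 and hg19 with no role. Within a library all values were multiples of a single step, so whole reads were recovered for 100% of values (tolerance 0.001 reads), with size factors of 0.917 to 1.205. In the 47 pairs of replicates the chi-square of the reads was 3.755 to 27.114 times its degrees of freedom, so none was counted as a repeat.

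limma 3.58.1 (R 4.3.3, trend and robust) was fitted on log2(value + 1) with 5 group means over all 24 libraries, and 8 comparisons were drawn. It was tested on simulated data. Tools on the recovered reads were edgeR 4.0.16 and DESeq2 1.42.0, and 37 alternatives were run, 2 of them added after the data were seen. The labels do not state that libraries came from separate mice, so p-values measure the spread between libraries. Letters in the titles are shared within groups, the sources used here do not say what they mean, and the reported fit treats such libraries as independent (consensus correlation 0.189). Gene coordinates come from GENCODE and promoters from RefSeq, matched by symbol for 10 of 10 members.

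The members, gene lists and tests were chosen with earlier results of these data known. Named genes are the members, up to 4 called genes per list and diet comparison, the 3 other pan-reactive genes, the 3 genes most like each member, and Ttr, Tcf7l2 and P2ry12. Stat3, Il6st, Socs3, Osm, Tnf, Slc1a2, Gja1, Aqp4, Nes, Plec, Atp1b2, Kcnj10, Tm4sf1, H2-D1, Psmb8 and Ogn were named after their values were seen.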

Additional observations from a re-analysis of the deposited data

Results flagged for a closer look

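Of 50 sets of a gene in a group of 4 to 6 libraries, 6 held a library far from the others of its group by Dixon's ratio. Chance flags about 2.5 if values are normally distributed and the sets are independent. The rule was applied to normalized counts, and the sets share libraries, so 6 beside 2.5 shows neither an excess nor its absence. In the control-diet ECT group, library 5 was far above the others in Gfap (13359) and in Timp1 (30.53). In the PLX-diet sham group, library 17 was far above in Lcn2 (50.65) and in Steap4 (16.88), and library 18 in Cd44 (122.9). In the PLX-diet ECT group, library 12 was far above in Aspg (57.03).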

How the results depend on the processing

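The count of called members was 0 in all 37 alternatives for ECT on either diet, the interaction, stress, and stress with ECT. For the PLX diet in sham mice it was 0, and 1 (Gfap) with only the compared groups in the fit (adjusted p = 0.0116). In ECT mice it was 1, and it was 0 with no filter on low values, with only the compared groups, with limma-voom and the title letter as a random effect, with choroid plexus and thalamus covariates, with the meningeal covariate and without the thalamus-rich libraries. It was 2 with tissue covariates and no library 5. For the average it was 1, 2 with edgeR RLE factors and with DESeq2 (Aspg joined), and 0 with the title letter, with choroid plexus and thalamus covariates and without the thalamus-rich libraries. Leaving out each library in turn gave 0 to 1 in sham mice, 0 to 2 in ECT mice and 0 to 2 for the average. Without library 5 Gfap was called in sham mice (adjusted p = 0.0194) and in ECT mice (0.000192), and without library 20 or 25 Aspg was called for the average (0.032 and 0.0456). Library 5 was singled out for its own Gfap value, so no fit without it is independent support. Library 5 is in neither sham group, so without it the sham difference of Gfap stayed 0.42. Only the shared estimate of spread and the adjustment of p changed there, as in the sham fit with only the compared groups. Library 25 was nonstressed and likewise enters no diet difference. Other causes were not tested. Gfap and Aspg kept a positive diet difference in all alternatives and in sham, ECT and average. Serpina3n and S1pr3 changed sign in 7 and 11 of 37 for the average, near 0. Leaving out the thalamus-rich libraries leaves 3 control-diet ECT and 3 PLX-diet ECT libraries. The meningeal covariate raised the genes called on average over all genes from 464 to 1259, and in ECT mice from 350 to 949. In ECT mice the count was 229 with only the compared groups, 196 without the thalamus-rich libraries, 168 without library 5 as well and 227 without library 15. Without both library 5 and the thalamus-rich libraries, the 1 member called in ECT mice was Gfap (adjusted p = 0.0182) rather than Aspg (0.999). Lcn2 was tested in 31 of the 37. No paired analysis was possible because groups share no replicate numbers. Depth limits Lcn2, Steap4, Timp1 and Osm, where a library holds few or 0 reads.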
